A study of Mus musculus with 38 samples.

Results

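The 10 genes Cd22, Cd79a, Cd79b, Ms4a1, Cd37, Irf4, Prdm1, Xbp1, Jchain and Mzb1, which mark mature B cells and antibody-secreting plasma cells, were followed in marrow of mice treated with G-CSF, with zoledronic acid (ZA) or with the pair. They were chosen by name, and each was matched by its Ensembl identifier among 47729 genes in the whole marrow tables and 46679 genes in the precursor tables. RNA was sequenced from female C57BL/6 mice that the labels place at 6 to 7 weeks of age. ZA, a bisphosphonate that binds bone and acts on osteoclasts, was injected at 100 µg/kg, and recombinant human G-CSF, the cytokine that drives neutrophil production, was given at 50 µg/kg on 3 days.

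Mice of the combined group received ZA and, beginning 2 days later, G-CSF; the G-CSF and ZA groups received a single agent, and the untreated group received neither. Whole marrow was sequenced from 2 combined, 3 G-CSF, 2 ZA and 2 untreated libraries. A sorted population, labelled osteoclast precursors, was defined by CD115 on the surface and by the absence of CD45R, CD3, TER119, CD11b and Ly-6G/Ly-6C. Because CD45R, a B cell surface protein, was among the markers gated out, the sort was set to remove B-lineage cells. The first sequencing run held 8 precursor libraries, of which 3 were combined, 3 G-CSF, 1 ZA and 1 untreated, with 3 whole marrow libraries beside them (G-CSF 1, ZA 1, untreated 1). The labels number replicates without stating that these came from separate mice, so each p-value covers only the spread among these samples, which may be technical.

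B cells recognise antigen through a membrane immunoglobulin that signals only when it is joined to the heterodimer of CD79a and CD79b, whose cytoplasmic tails recruit the kinase SYK. CD22 is a sialic-acid-binding receptor that dampens this signal, CD20 (Ms4a1) is a surface protein of B cells from late development until plasma cell differentiation, and CD37 is a tetraspanin of mature B cells that other leukocytes also carry. When a B cell becomes a plasma cell, the transcription factors IRF4 and BLIMP-1 (Prdm1) shut down the B cell programme, and XBP1 enlarges the endoplasmic reticulum for antibody secretion. The J chain (Jchain) links IgM and IgA into polymers, and MZB1 is a chaperone of immunoglobulin assembly in the endoplasmic reticulum. Bone marrow both makes new B cells and houses long-lived plasma cells.

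Promoters of 4 genes that behaved differently from each other are shown, since the same window can be compared between a gene that fell with G-CSF (Cd22, Jchain), a gene whose groups overlapped (Cd79a) and the gene that was higher in precursors (Xbp1). RefSeq windows of GRCm38.p6, from 250 bases before to 50 bases after the start, were given for 7 of the 10 genes. Capitals mark motif matches.
Cd22, chr7:30878979-30879278, minus strand: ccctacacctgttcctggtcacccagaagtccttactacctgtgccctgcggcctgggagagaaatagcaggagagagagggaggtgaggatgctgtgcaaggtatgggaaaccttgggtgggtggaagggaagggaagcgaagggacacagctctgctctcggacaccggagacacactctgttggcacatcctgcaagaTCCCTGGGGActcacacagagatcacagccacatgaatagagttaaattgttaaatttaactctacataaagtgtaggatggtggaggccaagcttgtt
Jchain, chr5:88527848-88528147, minus strand: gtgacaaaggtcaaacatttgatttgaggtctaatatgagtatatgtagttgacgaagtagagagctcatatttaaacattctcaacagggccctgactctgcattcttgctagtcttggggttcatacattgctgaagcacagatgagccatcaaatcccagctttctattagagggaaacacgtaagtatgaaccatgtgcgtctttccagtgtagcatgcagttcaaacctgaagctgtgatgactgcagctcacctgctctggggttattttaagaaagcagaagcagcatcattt
Cd79a, chr7:24897247-24897546, plus strand: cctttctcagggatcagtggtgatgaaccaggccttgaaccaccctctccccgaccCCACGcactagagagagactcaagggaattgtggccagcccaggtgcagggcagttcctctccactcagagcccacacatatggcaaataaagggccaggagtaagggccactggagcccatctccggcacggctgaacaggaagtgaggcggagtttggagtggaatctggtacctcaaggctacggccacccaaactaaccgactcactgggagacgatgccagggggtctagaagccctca
Xbp1, chr11:5520391-5520690, plus strand: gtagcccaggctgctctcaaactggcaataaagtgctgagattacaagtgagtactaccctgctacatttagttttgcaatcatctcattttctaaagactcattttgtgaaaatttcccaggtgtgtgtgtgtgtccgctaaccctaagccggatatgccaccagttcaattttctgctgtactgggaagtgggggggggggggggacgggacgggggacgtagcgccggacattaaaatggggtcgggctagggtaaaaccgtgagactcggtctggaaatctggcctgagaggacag
Both strands of each window were searched for the octamer ATGCAAAT, the EBF motif (TCCC, any 2 bases, GGGA), the PU.1 motif GAGGAAGT, the unfolded protein response element TGACGTG and CCACG, the XBP1-bound end of the endoplasmic reticulum stress element. The Cd22 window held a single EBF match, TCCCTGGGGA, 49 bases before the start, which matches on both strands. That motif was present in 0.904% of the 32851 windows in the table. Cd79a held CCACG, which 32.8% of all windows also held. The Jchain and Xbp1 windows held none of the 5 motifs. Among the windows not shown, Cd37 held a PU.1 match on the opposite strand, a motif in 3.20% of windows, and CCACG was found in Cd37, Irf4 and Prdm1. The octamer and the unfolded protein response element, in 1.74% and 2.01% of all windows, were found in none of the 7. The RefSeq starts used for Cd22, Prdm1, Cd37, Cd79a and Irf4 lie inside the longer gene spans of GENCODE vM21, and those of Jchain and Xbp1 just outside.

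In GENCODE vM21 (coordinates of GRCm38, that is, mm10) all 10 are protein-coding genes. Cd79a (ENSMUSG00000003379) spans chr7:24897381-24902197, Cd22 (ENSMUSG00000030577) spans chr7:30865402-30880342 and Cd37 (ENSMUSG00000030798) spans chr7:45233632-45239115. Jchain (ENSMUSG00000067149) lies at chr5:88519809-88527891, Ms4a1 (ENSMUSG00000024673) at chr19:11249675-11266241 and Cd79b (ENSMUSG00000040592) at chr11:106311341-106314762. The transcription factor genes Irf4 (ENSMUSG00000021356), Prdm1 (ENSMUSG00000038151) and Xbp1 (ENSMUSG00000020484) lie at chr13:30749226-30766976, chr10:44437177-44528501 and chr11:5520659-5525893. Mzb1 (ENSMUSG00000024353) lies at chr18:35647267-35649367. The labels do not state whether the libraries kept strand, so reads from overlapping genes cannot be told apart: antisense Gm29439 over Cd22 reached at most 1.09 TPM in whole marrow, and Tead2 over Cd37 at most 0.722 TPM. Spata24, which overlaps Mzb1 on the same strand, had a median of 9.16 TPM in whole marrow, where Mzb1 had 28.4, and of 6.41 TPM in run 1 precursors, where Mzb1 had 0.342. The 4930526L06Rik gene, antisense to Ms4a1, had at most 0.107 TPM in whole marrow, and up to 0.353 TPM in run 1 precursors, where Ms4a1 itself had 0.0691 to 0.374 TPM.

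Total estimated counts were 6236320 to 16152286 in the 9 whole marrow libraries and 21049178 to 33190370 in the 8 run 1 precursor libraries, so a count of 0 allowed up to 0.186 to 0.481 CPM, counts scaled to library size, in marrow and 0.0904 to 0.143 CPM in precursors, taking 3 counts as the limit and covering counting error only. Small non-coding RNA genes took 39.1% of the TPM of the library untreated 1, the highest of the 9 marrow libraries, and 6.46% to 12.3% of that of the other 8. The 3 run 1 whole marrow libraries had the same totals as untreated 2, G-CSF 2 and ZA 2 of the whole marrow tables, and 99.4% to 99.5% of genes agreed within 0.01 on the log2 TPM scale, so they are the same libraries deposited again. Scaled levels of a library differed between the tables (Cd79a in G-CSF 2 had 187 CPM in the whole marrow table and 243 CPM in the run 1 fit), so levels are set side by side only within a table.

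The whole marrow libraries also fell into 2 sets by genes that were on in one set and off in the other. In the 5 libraries given G-CSF, 50 genes had at least 1 TPM in each while lying at 0.1 TPM or below in all 4 libraries without G-CSF, and 11 genes showed the reverse. Eno1b had 58.5 to 79.8 TPM in the libraries with G-CSF and 0 to 0.623 TPM in those without, and Vill had 0 to 0.226 TPM with G-CSF and 11.6 to 46.4 TPM without. In run 1 precursors given G-CSF, the same genes lay on the side of the marrow without G-CSF, with Eno1b at 0 to 0.450 TPM and Vill at 55.9 to 95.5 TPM. The labels do not assign these libraries to different genetic backgrounds, and the source of the division was not tested. A possible difference in genetic background and G-CSF treatment thus cannot be told apart in any whole marrow comparison that crosses this division. Nor can they be told apart for the G-CSF marrow library set beside the precursors. The comparisons of combined with G-CSF and of ZA with untreated do not cross the division.

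The labels of run 2 were checked with Cd79a and with Csf1r, the gene of the CD115 used for the sort. Of 15 run 2 libraries labelled precursors, 7 had 19.3 to 66.0 TPM of Cd79a and 8 had 0.210 to 3.05 TPM. Of those 7, the library labelled G-CSF 1 had 61.3 TPM of Csf1r beside its 19.3 TPM of Cd79a, combined 3 had 31.4 TPM of Csf1r, and the other 5 had 7.87 to 17.9 TPM. Of 3 run 2 libraries labelled whole marrow, 2 had 0.852 and 1.60 TPM of Cd79a with 56.8 and 71.9 TPM of Csf1r, and the third had 55.5 TPM of Cd79a. In run 1, precursors held at most 1.60 TPM of Cd79a and 43.3 to 77.9 TPM of Csf1r, while marrow held 64.5 to 71.6 TPM of Cd79a and 9.05 to 13.4 TPM of Csf1r. At a cut of 10 TPM of Cd79a, 7 run 2 libraries labelled precursors and 2 labelled whole marrow lay on the side of the other label. Only 4 of the 15 labelled precursors lay within the run 1 precursor maximum, and the third marrow library lay below the run 1 marrow range. By Csf1r, G-CSF 1 lay within the run 1 precursor range and combined 3 between the ranges. Precursor results below rest on run 1.

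**Figure D1:**
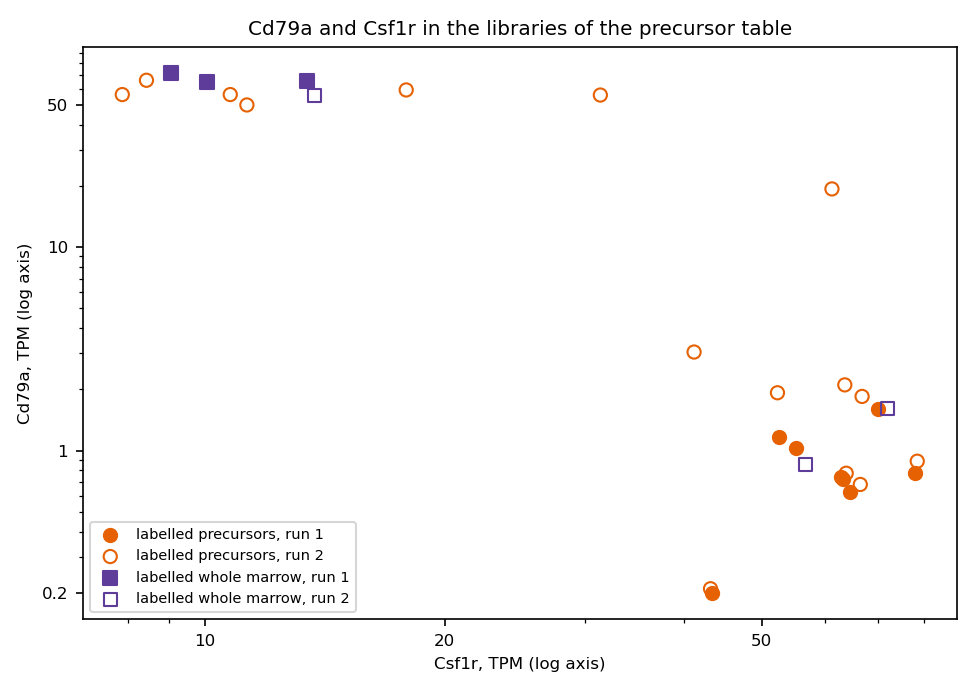
Cd79a (vertical, TPM, log axis) against Csf1r (horizontal, TPM, log axis) in the 29 libraries of the precursor tables, with circles for libraries labelled precursors, squares for libraries labelled whole marrow, filled for run 1 and open for run 2. Filled circles stay at or below 1.60 TPM of Cd79a, whereas 7 open circles lie at 19.3 TPM or higher and 2 open squares lie among the filled circles.

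By TPM, which allows genes to be compared, the order of the medians over the 9 whole marrow libraries was Cd79b (73.0), Cd79a (71.6), Cd37 (44.2), Mzb1 (28.4), Xbp1 (24.7), Jchain (20.2), Ms4a1 (7.32), Cd22 (4.88), Irf4 (4.00) and Prdm1 (0.198). Neighbours in this order overlapped in range, with the exception of Jchain (15.5 to 234 TPM) above Ms4a1 (5.51 to 10.1 TPM) and of Irf4 (1.81 to 8.10 TPM) above Prdm1 (0.0563 to 0.381 TPM). Jchain had the widest range, and its highest library was untreated 2. In run 1 precursors the order was Xbp1 (77.7), Cd37 (25.0), Cd79b (11.0), Cd22 (4.69), Irf4 (1.34), Cd79a (0.759), Jchain (0.739), Mzb1 (0.342), Ms4a1 (0.241) and Prdm1 (0.120). There the ranges of Xbp1, Cd37 and Cd79b did not overlap, nor did those of Cd22 (2.36 to 10.2 TPM) and Irf4 (0.817 to 1.94 TPM), and the other neighbours overlapped.

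The first question was how these genes differed between the treatment groups in whole marrow. Ms4a1 and Cd22 were lower after G-CSF alone, Ms4a1 was lower after the combination, and Jchain was lower after G-CSF alone. The Jchain call was lost in 6 of the 9 fits that left out a library, among them the fit without untreated 2. The Cd79a signalling chain overlapped between the groups in every comparison with untreated marrow. No gene of the 10 passed the test after ZA alone. In bulk marrow, fewer B or plasma cells and less RNA per cell cannot be told apart. Comparisons of libraries with and without G-CSF also cross the division described above. A possible difference in genetic background and G-CSF cannot be told apart there. All levels below are CPM scaled by TMM factors, and adjusted p-values come from edgeR's quasi-likelihood test over 14737 genes with Benjamini-Hochberg adjustment, with 0.05 as the threshold for calling a gene.

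**Figure D2:**
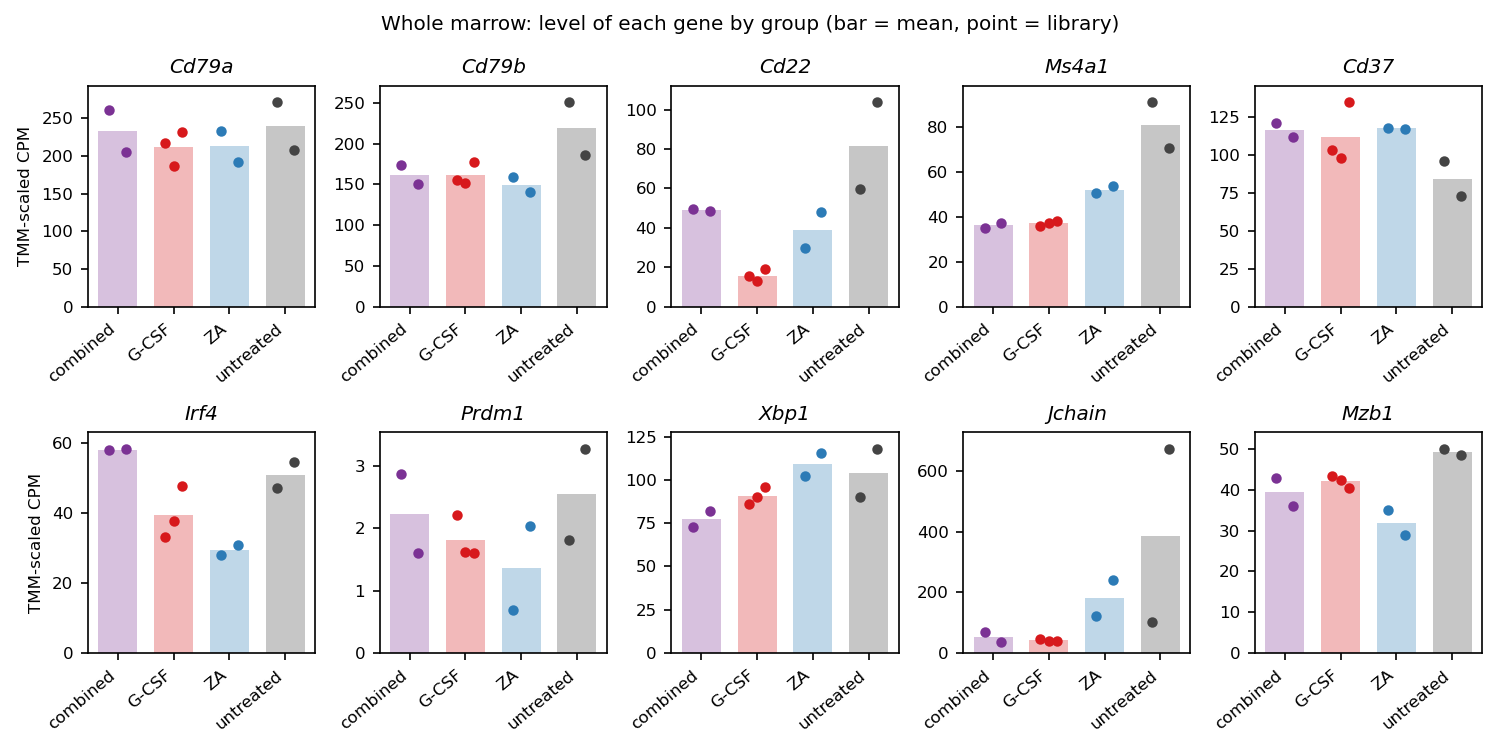
TMM-scaled CPM (vertical, from 0) of the 10 genes in whole marrow, with points for libraries and bars for group means, for 2 combined, 3 G-CSF, 2 ZA and 2 untreated libraries. Ms4a1 lies at 35.2 to 38.1 CPM in all 5 libraries with G-CSF and at 50.4 to 91.0 CPM in the 4 without, Cd22 is lowest in the 3 G-CSF libraries, and Jchain in untreated 2 stands at 673 CPM.

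Among the receptor chains, Cd79a had 261 and 206 CPM in combined marrow, 218, 187 and 231 CPM in G-CSF marrow, 234 and 191 CPM in ZA marrow, and 271 and 208 CPM in untreated marrow. The 4 groups overlapped. Cd79b, its partner chain, had 174 and 150 CPM in combined marrow, 156, 151 and 177 CPM in G-CSF marrow, 159 and 140 CPM in ZA marrow, and 251 and 187 CPM in untreated marrow. The untreated libraries were above all others for Cd79b, but no comparison of it passed the threshold: its log2 change was -0.43 ± 0.18 after the combination (SE, adjusted p = 0.184), -0.44 ± 0.17 after G-CSF (adjusted p = 0.117) and -0.55 ± 0.18 after ZA (adjusted p = 0.447). On the TPM scale the first 2 of these turned positive, as set out under the processing settings.

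Ms4a1, which encodes CD20, had 35.2 and 37.3 CPM in combined marrow, 35.8, 37.3 and 38.1 CPM in G-CSF marrow, 50.4 and 53.9 CPM in ZA marrow, and 91.0 and 70.5 CPM in untreated marrow. The 5 libraries with G-CSF lay below the 4 without, and the ZA libraries lay between. Ms4a1 fell after the combination by 1.15 on the log2 scale, a log2 change of -1.15 ± 0.17 (SE, adjusted p = 0.0054), and after G-CSF the log2 change was -1.12 ± 0.16 (adjusted p = 0.0024); both comparisons share the untreated libraries. Without combined 1 the change after the combination was -1.11 and was not called (adjusted p = 0.0617). After ZA the log2 change was -0.63 ± 0.17 (adjusted p = 0.354), which did not pass. On the log2(TPM + 0.5) scale the changes were 0.052 after the combination and -0.24 after G-CSF, on which the medians of all genes moved by 0.92 and 0.62, so the direction of the first depends on the scale and Ms4a1 stayed below the median gene in both. Within libraries, the ratio of Ms4a1 to Cd79a in TPM, which does not depend on scaling between libraries, was 0.0610 and 0.0821 in combined marrow, 0.0745, 0.0903 and 0.0746 in G-CSF marrow, 0.0977 and 0.128 in ZA marrow, and 0.152 and 0.154 in untreated marrow. The order of the groups in this ratio matched that of the CPM levels, with no overlap between libraries with and without G-CSF.

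Cd22, the inhibitory co-receptor, had 49.7 and 48.6 CPM in combined marrow, 15.4, 12.7 and 19.0 CPM in G-CSF marrow, 29.7 and 48.1 CPM in ZA marrow, and 59.5 and 104 CPM in untreated marrow. The 3 G-CSF libraries were the lowest, and no library of another group overlapped them. Cd22 fell after G-CSF, with a log2 change of -2.38 ± 0.29 (SE, adjusted p = 0.0012), the gene's only called change against untreated marrow; it was -1.37 on the log2(TPM + 0.5) scale (limma, adjusted p = 0.0485). The log2 change was -0.73 ± 0.31 after the combination (adjusted p = 0.184), turning to 0.49 on the TPM scale, and -1.07 ± 0.32 after ZA (adjusted p = 0.407). The ratio of Cd22 to Cd79a was 0.112 and 0.139 in combined marrow, 0.0416, 0.0401 and 0.0483 in G-CSF marrow, 0.0746 and 0.148 in ZA marrow, and 0.129 and 0.294 in untreated marrow. Cd22 therefore did not keep to a fixed proportion of Cd79a. The ratio of Cd79b to Cd79a was 0.838 and 0.917 in combined marrow, 0.900, 1.02 and 0.965 in G-CSF marrow, 0.857 and 0.921 in ZA marrow, and 1.16 and 1.13 in untreated marrow. In this ratio the untreated libraries lay above all others.

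**Figure D3:**
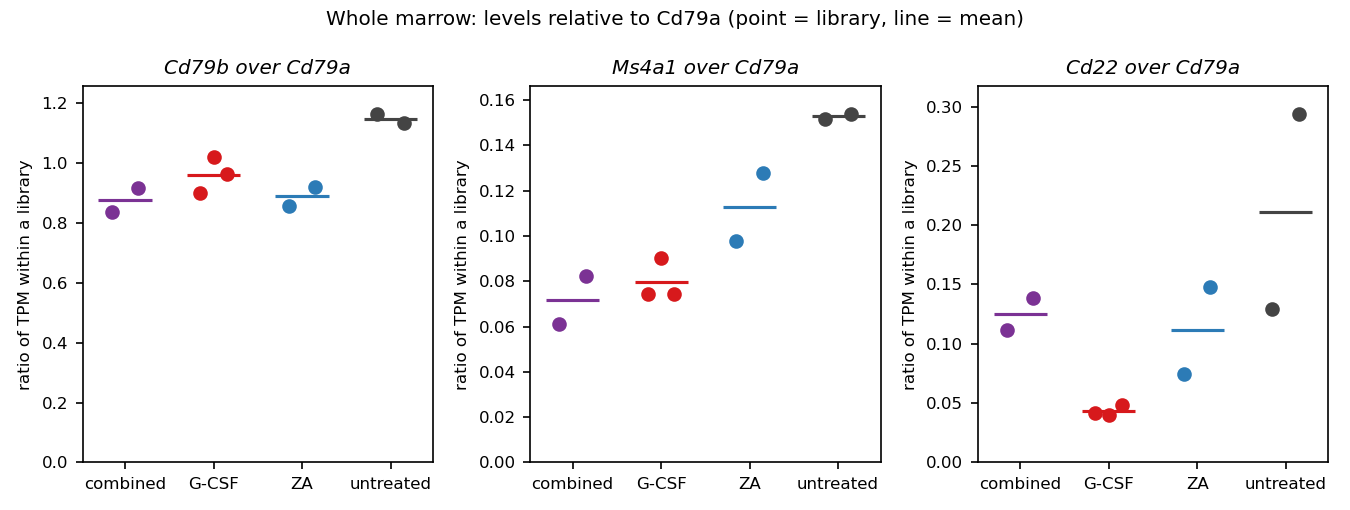
TPM of Cd79b, Ms4a1 and Cd22 divided by TPM of Cd79a within each whole marrow library (vertical, from 0), with points for libraries and lines for group means, for combined, G-CSF, ZA and untreated marrow. The Ms4a1 ratio is 0.0610 to 0.0903 in the 5 libraries with G-CSF and 0.0977 to 0.154 in the 4 without, and the Cd22 ratio is lowest, at 0.0401 to 0.0483, in the 3 G-CSF libraries.

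Cd37 ran the other way. It had 121 and 112 CPM in combined marrow, 103, 98.1 and 135 CPM in G-CSF marrow, 118 and 117 CPM in ZA marrow, and 96.2 and 72.6 CPM in untreated marrow, so every treated library was above both untreated ones. None of these differences passed the threshold. The log2 change was 0.47 ± 0.20 after the combination (adjusted p = 0.194) and 0.48 ± 0.20 after ZA (adjusted p = 0.515). On the TPM scale limma called the increase after the combination (log2 change 1.66, adjusted p = 0.0061), on a scale whose median gene had moved by 0.92.

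Irf4, the factor needed both for activated B cells and for plasma cells, had 58.0 and 58.4 CPM in combined marrow, 33.3, 37.9 and 47.7 CPM in G-CSF marrow, 28.0 and 30.9 CPM in ZA marrow, and 47.1 and 54.8 CPM in untreated marrow. The ZA libraries were the lowest and the combined libraries the highest, and neither group overlapped any other. The log2 change after ZA was -0.79 ± 0.20 (SE, adjusted p = 0.334) and did not pass. Prdm1, which encodes BLIMP-1, had the lowest levels of the 10 genes, above the detection limit of 0.186 to 0.481 CPM. Prdm1 had 2.86 and 1.60 CPM in combined marrow, 2.22, 1.62 and 1.61 CPM in G-CSF marrow, 0.690 and 2.04 CPM in ZA marrow, and 1.81 and 3.27 CPM in untreated marrow. Its groups overlapped in every comparison.

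Xbp1, the driver of the secretory programme, had 72.5 and 82.2 CPM in combined marrow, 85.8, 90.2 and 96.0 CPM in G-CSF marrow, 102 and 116 CPM in ZA marrow, and 90.1 and 118 CPM in untreated marrow. The combined libraries were the lowest, but the log2 change of -0.43 ± 0.18 against untreated marrow (SE, adjusted p = 0.172) did not pass and was 0.76 on the TPM scale. Mzb1 had 42.8 and 36.0 CPM in combined marrow, 43.4, 42.3 and 40.5 CPM in G-CSF marrow, 35.1 and 28.9 CPM in ZA marrow, and 50.0 and 48.4 CPM in untreated marrow. The untreated libraries were the highest for Mzb1, and the largest of its differences, a log2 change of -0.62 ± 0.18 after ZA (adjusted p = 0.380), did not pass.

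Jchain, the joining chain of polymeric antibody, had 70.8 and 36.7 CPM in combined marrow, 46.1, 40.7 and 39.1 CPM in G-CSF marrow, 122 and 240 CPM in ZA marrow, and 102 and 673 CPM in untreated marrow. All 5 libraries with G-CSF lay below all 4 without, and the untreated libraries differed from each other by more than untreated 1 did from any library of another group. Jchain fell after G-CSF, with a log2 change of -3.21 ± 0.72 (SE, adjusted p = 0.0313). Without untreated 2 this log2 change was -1.27 (adjusted p = 0.131), and without untreated 1 it was -3.99 (adjusted p = 0.0013). After the combination the log2 change was -2.85 ± 0.82 (adjusted p = 0.0859) and was not called, with values of -0.92 without untreated 2 and -3.63 without untreated 1. On the TPM scale the call after G-CSF was lost (log2 change -1.77, adjusted p = 0.287). Each fit without combined 1, combined 3, G-CSF 1, G-CSF 2 or G-CSF 3 also lost the call after G-CSF, with log2 changes of -3.27 to -3.16 and adjusted p of 0.0502 to 0.101. DESeq2 called the change after the combination (adjusted p = 0.0154). The ratio of Jchain to Mzb1 in TPM was 0.975 and 0.604 in combined marrow, 0.626, 0.567 and 0.572 in G-CSF marrow, 2.05 and 4.91 in ZA marrow, and 1.20 and 8.22 in untreated marrow, so the 2 secretory genes did not move together.

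Counted over the 10 genes, 1 was called after the combination, in the lower direction (Ms4a1), against 7.72% of all genes called and 4.55% called lower. After G-CSF, 3 were called lower (Ms4a1, Cd22, Jchain) and none higher, against 11.8% of all genes called and 6.91% called lower. After ZA, edgeR and DESeq2 each called 0 of the 10, and 6 had an unadjusted p under 0.05, against 0.0339% of all genes called by edgeR and 9.47% at an unadjusted p under 0.05. The median log2 change of the 10 genes was -0.37 after the combination, -0.40 after G-CSF and -0.63 after ZA, beside medians of -0.01, 0.01 and 0.01 over all genes tested. On the log2(TPM + 0.5) scale the medians of the 10 genes were 0.77, 0.42 and -0.15, beside 0.92, 0.62 and 0.32 over all genes, so the sign of the first 2 depends on the scale while each stayed below that of all genes.

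**Figure D4:**
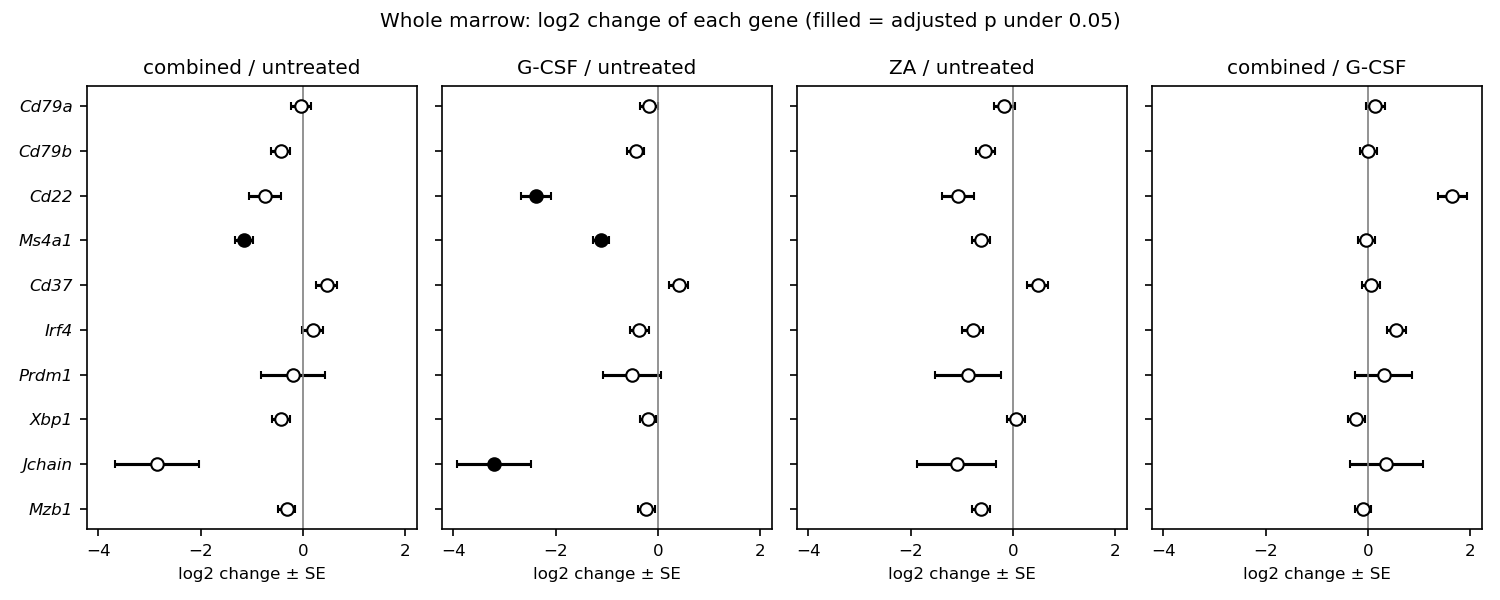
Log2 change (horizontal) with its standard error (bars) of the 10 genes in whole marrow for combined against untreated, G-CSF against untreated, ZA against untreated, and combined against G-CSF; filled points passed an adjusted p of 0.05 in edgeR. Filled points are Ms4a1 for the combination (-1.15) and Ms4a1 (-1.12), Cd22 (-2.38) and Jchain (-3.21) for G-CSF, and none is filled for ZA or for combined against G-CSF.

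The second question was what ZA added to G-CSF, a comparison within 1 side of the division of the marrow libraries. Cd22 was higher in combined marrow, at 49.7 and 48.6 CPM against 15.4, 12.7 and 19.0 CPM in G-CSF marrow. Its log2 change of 1.65 ± 0.28 had an unadjusted p of 0.00023 and an adjusted p of 0.145 in edgeR, and was called by DESeq2 (adjusted p = 5.9e-05). The log2 change of Irf4 was 0.56 ± 0.18 (adjusted p = 0.366). Over the 10 genes edgeR called 0, against 0.00679% of all genes, DESeq2 called 1, and 2 had an unadjusted p under 0.05. The comparison of combined with ZA marrow does cross the division, so a possible difference in genetic background and G-CSF cannot be told apart in it. Against ZA marrow the combined marrow had more Irf4, with 58.0 and 58.4 CPM against 28.0 and 30.9 CPM and a log2 change of 0.98 ± 0.20 (adjusted p = 0.0286). Irf4 was the single call among the 10, against 4.33% of all genes called and 1.87% called higher. This call was lost in 5 of the 9 fits that left out a library, those without combined 1, combined 3, G-CSF 2, ZA 2 or ZA 3, with adjusted p up to 0.187, and on the TPM scale (log2 change 1.54, adjusted p = 0.0552).

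A further test took the interaction of ZA and G-CSF, the part of the combined log2 change not given by adding those of the single agents. It sets the ZA change with G-CSF against that without, across the division of the marrow libraries. Dependence of the ZA change on G-CSF and on a possible difference in genetic background thus cannot be told apart. The interaction is given as a log2 change. The interaction was 2.72 ± 0.43 for Cd22 (SE, adjusted p = 0.10) and 1.34 ± 0.27 for Irf4 (adjusted p = 0.143), and 0.60 ± 0.23 for Ms4a1 (adjusted p = 0.380). EdgeR called 0 of the 10, against 0.00679% of all genes, with 3 at an unadjusted p under 0.05, and DESeq2 called 2 (Cd22, adjusted p = 4.2e-06, and Irf4, adjusted p = 0.0044). For Cd22 the term without untreated 1 was 3.07 and passed (adjusted p = 0.0491). Cd22 and Irf4 had in common that the combined libraries were above both single-agent means, which were 15.7 (G-CSF) and 38.9 CPM (ZA) for Cd22, and 39.6 (G-CSF) and 29.5 CPM (ZA) for Irf4.

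When all 5 libraries with G-CSF were set against the 4 without, weighting the ZA and no-ZA arms alike, Ms4a1, Cd22 and Jchain were lower with G-CSF. Ms4a1 averaged 36.8 CPM with G-CSF and 66.5 CPM without, a log2 change of -0.82 ± 0.12 (SE, adjusted p = 0.0018). Cd22 averaged 29.1 CPM with G-CSF and 60.3 CPM without, with overlapping libraries and a log2 change of -1.02 ± 0.21 (adjusted p = 0.0124). Jchain averaged 46.7 CPM with G-CSF and 284 CPM without, a log2 change of -2.48 ± 0.54 (adjusted p = 0.0241), which was -1.51 without untreated 2 (adjusted p = 0.0132). The Jchain call was lost without combined 1, combined 3, G-CSF 1, G-CSF 2, G-CSF 3 or ZA 3, with adjusted p of 0.0598 to 0.0998, and the Cd22 call without combined 1 (adjusted p = 0.0545). These 3 genes of the 10 stand beside 14.7% of all genes called and 8.27% called lower. On the TPM scale, whose median gene moved by 0.62, the log2 changes were -0.01 for Ms4a1, -0.15 for Cd22 and -1.38 for Jchain, and none of the 3 was called.

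Genes of other cell types were compared across the same division, where 14.7% of all genes were called and 8.27% called lower. Of 8 T cell genes 4 were called lower and 1 higher with G-CSF, with a median log2 change of -1.57. Their summed levels were 24.3 to 42.1 TPM with G-CSF and 20.8 to 37.2 TPM without; of these genes Cd3e was at 0 to 0.0836 TPM with G-CSF and 0.576 to 2.00 TPM without, while Cd3d was the gene called higher. Of 5 monocyte and precursor genes all 5 were called lower with G-CSF, with sums of 68.6 to 98.7 TPM with G-CSF and 46.6 to 146 TPM without. All 4 erythroid genes were called lower (2 without combined 3), and of 6 neutrophil genes 2 were called higher and 2 lower (2 in all without combined 1). Of 8 plasmacytoid dendritic cell genes, which share Xbp1 and Irf4 expression with plasma cells, 1 was called lower, and their sums were 58.1 to 66.7 TPM with G-CSF and 31.4 to 69.2 TPM without. That count of 1 held in none of the 9 fits that left out a library, being 2 without G-CSF 3 or ZA 2 and 0 in the others. How much these cell types contributed to the levels of the 10 genes was not tested.

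Other genes of the same pathways were counted from lists. Changes are log2 changes. Among 18 B cell receptor signalling genes, G-CSF against untreated marrow called Vav1 higher (log2 change 0.66) and Bank1 (-0.92) and Pik3ap1 (-0.87) lower; the list's median log2 change was -0.26. Bank1 is an adaptor of B cell receptor signalling. Among 21 further mature B cell genes, 6 were called lower and none higher, including H2-Ob (-3.38), Bach2 (-1.94), Cd180 (-1.72) and Ciita (-1.17), with a median of -0.51 for the list. These counts stand beside 11.8% of all genes called. The count of mature B cell genes was 3 without combined 1, combined 3, G-CSF 1 or G-CSF 2, and 2 without untreated 2, and ran from 2 to 8 over the 9 fits that left out a library. The receptor signalling count fell to 0 without untreated 2 and to 1 without G-CSF 1, with a range of 0 to 4. BACH2 represses the plasma cell programme, and CIITA switches on MHC class II genes, which B cells use to present antigen. Of the 10 plasma cell surface and survival genes tested, Slamf7 (-1.44) was called lower, and the count was 4 without untreated 1 and 2 without G-CSF 3. Of 24 secretory pathway and unfolded protein response genes none was called by edgeR after G-CSF (5 at an unadjusted p under 0.05, beside 29.4% of all genes, and 1 called by DESeq2). After the combination 2 were called lower, the chaperone gene Hspa5 (-0.83) and Pdia4 (-0.84), beside 7.72% of all genes called. That count was 0 without combined 1, combined 3 or untreated 1, and 1 without untreated 2, G-CSF 1, G-CSF 2 or G-CSF 3. Early B cell genes showed Rag1 (-0.98) as the 1 of 7 called after G-CSF. In TPM, where the median gene was higher with G-CSF, the summed early B cell genes had 173 to 263 with G-CSF and 67.1 to 138 without. The summed mature B cell genes had 857 to 1416 TPM with G-CSF and 407 to 898 without. Both directions were opposite to most of the CPM calls. The libraries without G-CSF include untreated 1, in which small non-coding RNA genes took 39.1% of the TPM. After ZA edgeR called no gene of any of these 5 lists, with 2, 4, 3, 3 and 2 genes at an unadjusted p under 0.05 in the order given, and DESeq2 called 1 mature B cell gene. In the combination against untreated marrow, H2-Ob (-3.38) was the 1 of 21 mature B cell genes called, and none of the 18 receptor signalling genes was (5 at an unadjusted p under 0.05, beside 24.8% of all genes, and 0 by DESeq2). Medians over all genes tested were -0.01 and 0.01.

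Genes with the pattern nearest to Cd79a and to Jchain were sought among 9882 genes with a mean of at least 5 CPM, by the root mean square difference of centred log2(CPM + 1) over the 9 whole marrow libraries. Nearest to Cd79a were Btd (0.0826), Idh3g (0.10) and Tsg101 (0.10), while the deviation of Cd79a from its own mean was 0.174, so the pattern of Cd79a was nearly flat. Nearest to Jchain were 3 immunoglobulin light chain genes, Igkv10-96 (0.443), Igkc (0.482) and Iglv1 (0.488), beside a deviation of 1.33 for Jchain itself. Igkc, the kappa constant region, had 495 and 316 CPM in combined marrow, 371, 320 and 385 CPM in G-CSF marrow, 531 and 1149 CPM in ZA marrow, and 641 and 2210 CPM in untreated marrow. As for Jchain, untreated 2 was the highest library and ZA 3 the next.

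The third question concerned the sorted precursors. Across treatments in run 1, no gene of the 10 was called. EdgeR called 0 of 18779 genes (0%) in combined against G-CSF precursors, where 1 of the 10 had an unadjusted p under 0.05 and 1306 of all genes did, and DESeq2 called 0 of the 10 and 62 genes. With against without G-CSF, edgeR again called 0 genes (0%), with 0 of the 10 and 682 of all genes at an unadjusted p under 0.05, and DESeq2 called 0 of the 10 and 25 genes. The ZA and the untreated precursor group had 1 library each in this second comparison.

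Jchain was the member that varied most among precursors. It had 0.891, 0.661 and 0.744 CPM in combined precursors, 2.03, 16.9 and 0.627 CPM in G-CSF precursors, 4.77 CPM in the ZA library and 17.3 CPM in the untreated library. The combined and G-CSF libraries overlapped, and the log2 change of -3.09 ± 1.18 (SE, adjusted p = 0.697) was -0.78 without G-CSF 2 (adjusted p = 0.917). Cd79a had 0.693, 1.53 and 3.04 CPM in combined precursors, 1.56, 2.61 and 1.32 CPM in G-CSF precursors, 1.60 CPM with ZA and 3.33 CPM untreated. Xbp1 varied little, from 203 to 238 CPM over the 8 libraries, as did Cd37, from 40.4 to 49.1 CPM, and Cd79b, from 16.3 to 21.3 CPM. Cd22 ran from 6.17 to 26.0 CPM, Irf4 from 6.14 to 13.8 CPM, Ms4a1 from 0.291 to 1.97 CPM and Prdm1 from 0.605 to 1.45 CPM. Mzb1, at 0.0846 to 1.07 CPM, reached down to the detection limit.

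The last comparison set 5 precursor libraries (G-CSF 3, ZA 1, untreated 1) against the 3 whole marrow libraries of the same treatments in run 1, with treatment as a term. Cd79a, Cd79b, Ms4a1, Cd37, Irf4, Jchain and Mzb1 were lower in the sorted cells, from which CD45R-bearing cells had been gated out, by log2 changes of -7.00 to -1.47, while Xbp1 was higher and Cd22 and Prdm1 did not pass. Of the 10 genes 7 were called lower and 1 higher, against 44.6% of all 16185 genes called, 23.5% lower and 21.1% higher. Their median log2 change was -2.79, beside 0.05 over all genes tested.

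Cd79a had 1.56, 2.61 and 1.32 CPM in G-CSF precursors, 1.60 CPM in ZA precursors and 3.33 CPM in untreated precursors, against 243, 291 and 270 CPM in G-CSF, ZA and untreated marrow. Its log2 change was -7.00 ± 0.29 (SE, adjusted p = 4.7e-06). Cd79b had 16.3, 17.9 and 19.6 CPM in G-CSF precursors, 20.4 CPM with ZA and 21.3 CPM untreated, against 197, 198 and 244 CPM in marrow, a log2 change of -3.46 ± 0.11 (adjusted p = 2.3e-06). The 2 chains of the heterodimer therefore fell by different amounts: in TPM, Cd79b was 8.03 to 32.1 times Cd79a in the 8 precursor libraries and 0.857 to 1.13 times in the 3 marrow libraries.

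Among the other surface genes, Ms4a1 was lower by a log2 change of -5.55 ± 0.26 (SE, adjusted p = 8.7e-06) and averaged 1.22 CPM in precursors and 62.0 CPM in marrow. Cd37 averaged 45.2 CPM in precursors and 125 CPM in marrow, a log2 change of -1.47 ± 0.13 (adjusted p = 0.00014). Cd22 averaged 14.8 CPM in precursors and 45.0 CPM in marrow with overlapping libraries, and its log2 change of -1.20 ± 0.49 (adjusted p = 0.0806) did not pass. Without the G-CSF marrow library, the lowest of the 3 for Cd22, the log2 change was -2.01 (adjusted p = 0.0018), and DESeq2 called it with all libraries (adjusted p = 0.0151).

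Xbp1 was the only one of the 10 called higher in precursors. It had 208, 221 and 238 CPM in G-CSF precursors, 208 CPM with ZA and 203 CPM untreated, against 105, 113 and 137 CPM in marrow, with no overlap and a log2 change of 0.84 ± 0.13 (SE, adjusted p = 0.0017). Its call was lost in a fit of only the untreated and G-CSF libraries numbered 2 from each cell source (adjusted p = 0.0879). Irf4 averaged 11.6 CPM in precursors and 51.0 CPM in marrow, a log2 change of -2.13 ± 0.18 (adjusted p = 0.00012). Prdm1 averaged 0.973 CPM in precursors and 2.35 CPM in marrow and overlapped. Of the 3 plasma cell transcription factor genes, 1 was called higher, 1 lower and 1 not called.

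Of the secretory genes, Mzb1 averaged 0.462 CPM in precursors and 53.9 CPM in marrow, a log2 change of -6.83 ± 0.47 (SE, adjusted p = 4.4e-05). Jchain had 2.03, 16.9 and 0.627 CPM in G-CSF precursors, 4.77 CPM with ZA and 17.3 CPM untreated, against 52.9, 151 and 876 CPM in marrow. Its log2 change was -4.49 ± 1.17 (adjusted p = 0.0218), and the call was lost in 5 of the 8 fits that left out a library, with adjusted p up to 0.0715. Those were the fits without marrow untreated 2, marrow ZA 2, precursor untreated 2, precursor G-CSF 1 or precursor ZA 3. The untreated library had the highest Jchain level in each cell source.

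**Figure D5:**
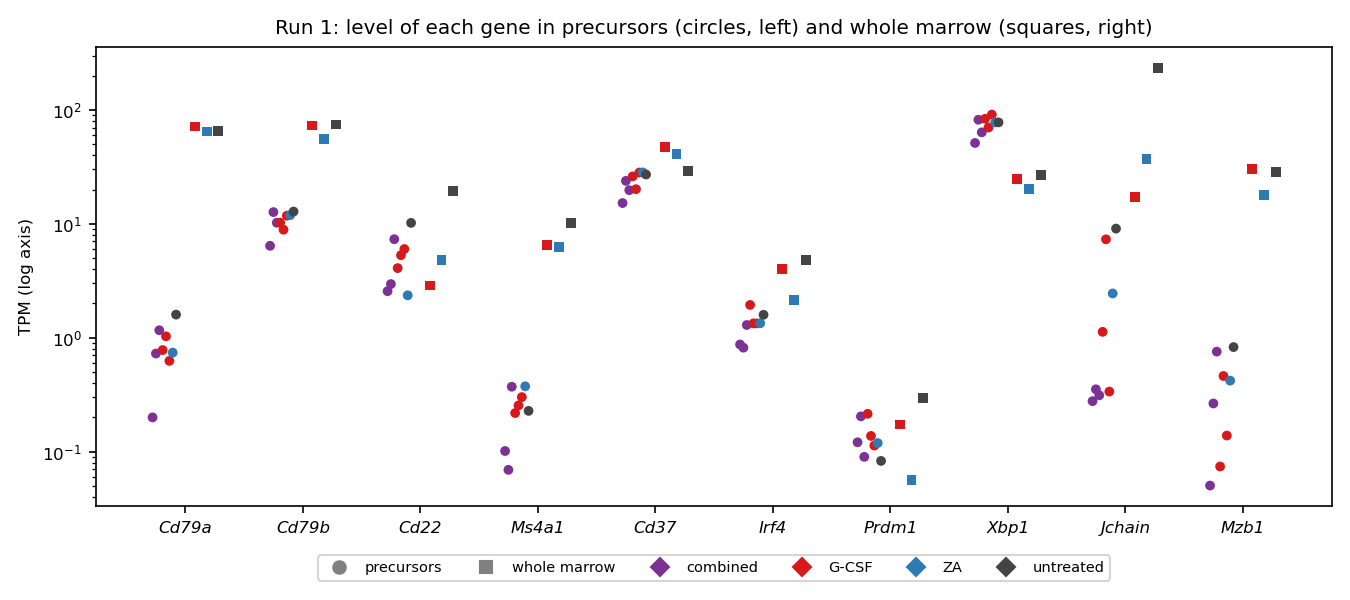
TPM (vertical, log axis) of the 10 genes in run 1, with circles for 8 precursor libraries on the left of each gene and squares for 3 whole marrow libraries on the right, coloured by treatment. Xbp1 lies higher in precursors (51.2 to 91.0 TPM) than in marrow (20.1 to 26.7 TPM), Cd79a, Cd79b, Ms4a1, Cd37, Irf4, Jchain and Mzb1 lie lower with no overlap, and Cd22 and Prdm1 overlap.

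The pathway lists divided in the same comparison, in which 44.6% of all genes were called, 23.5% lower and 21.1% higher. All 7 early B cell genes and 16 of 21 mature B cell genes were called lower in precursors, with Cd24a (-4.42) and Pou2af1 (-7.16) among the mature B cell genes, and Cd180 (log2 change 1.35), Fcgr2b (1.02) and Pou2f2 (0.98) were the 3 called higher. These 3 were named after their values were seen; Cd180 is a Toll-like receptor homologue and Fcgr2b the inhibitory Fc receptor, both also made by myeloid cells. Of 18 B cell receptor signalling genes, 9 were called lower, among them Blnk (-5.65), Blk (-6.12), Bank1 (-3.68) and Prkcb (-2.05), and 6 higher. Of 24 secretory pathway genes, 10 were called higher and 3 lower. The list's median log2 change was 0.13, beside 0.05 over all genes tested. Those higher included Ern1 (2.54), which encodes the kinase and nuclease that splices Xbp1 messenger RNA, and Txndc5 (1.56). Ddit3 (-1.92) and Atf4 (-1.20) were among the lower ones. Of 10 tested genes from the plasma cell surface and survival list, 4 were called higher and 5 lower. The lower ones included Ell2 (-4.55), Cd38 (-5.21) and Sdc1 (-2.43), and the higher ones Cd93 (1.64). All 5 monocyte and precursor genes were called higher, and all 4 erythroid genes and 4 of 6 neutrophil genes lower.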

How the data were processed

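RNA of whole marrow and of sorted precursors was sequenced on an Illumina instrument, per the labels' protocols. The deposited tables hold the authors' estimated counts and TPM per gene, made with Salmon on mm10, per the submitters' processing notes, which also name DESeq2 1.16.1. Gene symbols came from GENCODE vM21, matching 98.9% of marrow and 99.0% of precursor identifiers. Whole-number roundings of the estimated counts went into edgeR 4.0.16 (TMM factors, genes kept by filterByExpr with a minimum count of 10 and a total of 15, robust quasi-likelihood test, Benjamini-Hochberg threshold 0.05) in R 4.3.3, over all genes. All marrow groups entered 1 fit. The fits were tested on simulated data. Alternatives were DESeq2 1.42.0, RLE factors, no filter, protein-coding genes only, limma 3.58.1 on log2(TPM + 0.5), a replicate block, the 2 groups alone, libraries left out, and both sequencing runs. For precursors against marrow, a fit of the untreated and G-CSF libraries numbered 2 took the place of the block. The 10 genes and the lists were chosen with earlier results of these data known, and at most 4 genes with the smallest p were named per list and comparison unless stated. Same-numbered libraries of different treatments within a cell source were nearly uncorrelated, and pairing between the sources was not tested. Total counts set the detection limits.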

Additional observations from a re-analysis of the deposited data

Results flagged for a closer look

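Only 3 groups, the run 2 libraries labelled combined, G-CSF and ZA precursors with 4, 5 and 4 libraries, were large enough to ask whether 1 library stood apart. Asked for each of the 10 genes, this held in 11 of 30 sets, and 2 libraries account for all 11. Chance flags about 1 in 20 independent sets, but the genes share libraries, so the 11 cannot be read against that share. The library labelled combined 3 had 55.8 TPM of Cd79a, where the next combined library had 3.05. It had 54.5 TPM of Cd79b (next 11.6), 3.95 TPM of Ms4a1 (next 0.406) and 4.94 TPM of Irf4 (next 1.20). Its secretory genes Jchain and Mzb1 had 11.1 TPM (next 1.27) and 18.1 TPM (next 1.21). The library labelled G-CSF 2 had 66.0 TPM of Cd79a (next 19.3) and 66.2 TPM of Cd79b (next 25.1). It had 6.89 TPM of Ms4a1 (next 1.70), 4.01 TPM of Irf4 (next 2.00) and 28.4 TPM of Mzb1 (next 6.87). Run 1 whole marrow held 64.5 to 71.6 TPM of Cd79a. The cause was not tested.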

How the results depend on the processing

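Low counts limited Prdm1 and, in precursors, Mzb1, and groups of 1 to 3 libraries limited every test. Among values of single genes, 16 called results had 245 alternative values, of which 200 kept direction and call, 36 lost the call and 9 reversed; 23 uncalled results had 361, of which 337 kept both, 17 gained a call and 7 reversed. On log2(TPM + 0.5) the reversed log2 changes were 0.43 for Cd79b after G-CSF; 0.76 for Xbp1, 0.052 for Ms4a1, 0.49 for Cd22 and 0.77 for Cd79b after the combination; 0.25 for Xbp1 and 0.21 for Ms4a1 in combined against ZA; and 0.45 for Xbp1 with against without G-CSF. In run 2 libraries, precursors against marrow gave 1.76 for Cd79a, -0.11 for Xbp1, 0.52 for Irf4, 1.66 for Mzb1, 1.06 for Ms4a1, 0.33 for Cd37, 0.99 for Cd79b and 1.16 for Jchain, with 0 genes and 0 of the 10 called, beside 7220 and 8 in run 1. The run 2 values rest on labels that Cd79a and Csf1r put in doubt, so they do not measure dependence on processing. Counts of genes called moved as follows. For G-CSF against untreated (1746) there were 3206 with no filter and 3268 on TPM. For ZA against untreated (5) there were 130 by DESeq2, 634 with no filter (2 of the 10), 2 among protein-coding genes, 17 on TPM, 0 with the replicate block and 2 with the 2 groups alone. For combined against untreated (1137, 1 of the 10) there were 1740 by DESeq2 (2 of the 10), 2540 with no filter (2 of the 10), 6096 on TPM (3 of the 10), 481 with the replicate block and 748 with the 2 groups alone, and protein-coding genes gave 2 of the 10. For combined against G-CSF (1) there were 183 by DESeq2 (1 of the 10), 557 with no filter (1 of the 10), 6 among protein-coding genes, 38 on TPM, 0 with the replicate block and 5 with the 2 groups alone. For combined against ZA (638, 1 of the 10) there were 984 by DESeq2, 1587 with no filter (2 of the 10), 421 among protein-coding genes, 0 of the 10 on TPM and 387 with the replicate block. For with against without G-CSF (2161, 3 of the 10) there were 3362 with no filter and 6522 on TPM (5 of the 10). For the interaction (1) there were 245 by DESeq2 (2 of the 10), 746 with no filter (3 of the 10), 17 on TPM and 3 with the replicate block. In precursors, combined against G-CSF (0) gave 62 by DESeq2 and 1 with no filter, and with against without G-CSF (0) gave 25 by DESeq2, 2 with no filter and 26 on TPM. Precursors against marrow gave 11200 on TPM and 2788 with only the untreated and G-CSF libraries numbered 2 from each cell source. Leaving out 1 library gave 836 to 1706 genes for G-CSF against untreated, 0 to 23 for ZA against untreated, 296 to 1353 (0 to 2 of the 10) for combined against untreated, 0 to 18 for combined against G-CSF, 251 to 713 (0 to 2 of the 10) for combined against ZA, 1082 to 1967 (1 to 4 of the 10) for with against without G-CSF, 0 to 10 (0 to 1 of the 10) for the interaction, and 0 to 1 for precursors with against without G-CSF. Correlations of same-numbered libraries of different treatments were -0.0386 to 0.112 in marrow and -0.0324 to -0.0145 in precursors. Libraries in groups of 2 mirror each other once the group mean is removed, so the marrow check is weak. Pairing between marrow and precursors was not tested. With the replicate block, Jchain lost its calls after G-CSF (log2 change -2.98, adjusted p = 0.130) and with against without G-CSF (-2.24, adjusted p = 0.147). For precursors against marrow no block was fitted, and only the untreated and G-CSF libraries numbered 2 were kept. In that smaller fit Jchain (-3.66, adjusted p = 0.416) and Xbp1 (0.82, adjusted p = 0.0879) lost their calls. Other causes of these shifts were not tested.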
